A study of Mus musculus with 87 samples.

Results

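Axon guidance ligands and receptors were followed across 7 tissues and 6 inbred strains of the adult mouse, as the probe sets of an Affymetrix MG_U74Av2 array whose single gene symbol names a semaphorin of classes 3 to 7, a plexin, a neuropilin, an Eph receptor, an ephrin, a Robo, a Slit, a netrin or an Unc5 receptor. The rule was applied to symbols and used no measured value. It found 57 probe sets, which stand for 44 of 8251 genes named on the array, among 12422 probe sets other than controls. The genes were 16 semaphorins (21 probe sets), 5 plexins (6), Nrp1 (2), 7 EphA receptors (10), 2 EphB receptors (3), 5 ephrin-A ligands (5), 3 ephrin-B ligands (4), 2 Robo receptors (2), Ntn1 (2) and Unc5c (1). The rule also matched Unc50 by its name. Its product is not a netrin receptor, but it is included in every count of guidance probe sets below.

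The mice were 8-week-old wild type males of the strains C57BL/6J, FVB/NJ, DBA/2J, A/J, 129S6/SvEvTac and C3H/HeJ, and carried no transgene or treatment per the labels. Tissue came from the hippocampus, hypothalamus, amygdala, cingulate cortex, pituitary gland, bed nucleus of the stria terminalis and the periaqueductal gray of the midbrain, with 12 or 13 arrays per tissue and 87 in all. Each array held pooled or single tissue of 1 to 5 mice, and the 42 combinations of strain and tissue had 2 arrays (39 combinations) or 3 (3 combinations). RNA of the amygdala and cingulate cortex was amplified in 2 rounds from 50 ng (26 arrays), and RNA of the other tissues was labelled in 1 round from 10 µg (61 arrays), so tissues were compared only within a labelling protocol.

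Axon guidance genes encode cues and receptors that steer growing axons, and many stay active in the adult brain at synapses and in vessels. Ephrins are membrane-bound ligands of Eph receptor tyrosine kinases. Semaphorins signal through plexins, with neuropilins as co-receptors for most secreted class 3 members, while netrins act through Dcc and Unc5 receptors and Slits through Robo receptors.

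The strain labels and tissues were checked with results of the same fit that compared the groups. Of the 87 arrays, 83 correlated best with the brain profile of their labelled strain. The other 4, pituitary arrays with the labels FVB/NJ and C3H/HeJ, carried each other's strain profile over 200 probe sets. These probe sets and profiles came from the brain arrays as labelled, so the match of a brain array was partly built in. Pituitary arrays did not enter the profiles. Strains were therefore compared over the 6 brain regions only. Marker genes were set beside the tissue labels: all 5 tested pituitary markers were higher in the pituitary gland, 2 of 3 hippocampal markers in the hippocampus, 3 of 4 hypothalamic markers in the hypothalamus and 3 of 3 midbrain markers in the periaqueductal gray. The hypothalamic marker Avp had a median at or below 0 in the hippocampus and the periaqueductal gray. The bed nucleus arrays also held markers of neighbours, with 3 of 3 tested markers of choroid plexus, 3 of 3 of thalamus and 3 of 4 of hypothalamus higher. Hypothalamic arrays had 3 of 5 pituitary and 2 of 5 meninges markers higher. Animals were shared between tissues, since 81 arrays name an animal that another array also names. For 4 arrays that other array belongs to the same combination of strain and tissue, so replicates are not always separate animals. A p-value here covers the spread among these arrays alone, which may in part be technical. In such bulk tissue, fewer cells of a type and less RNA per cell cannot be told apart.

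A probe set was tested where its highest group mean lay above the median of all values, an intensity of 55.4. This held for 42 of the 57 guidance probe sets, which stand for 35 of the 44 genes. Sema3f was just inside the limit (57.3) and Epha2 just outside (54.8). The 15 probe sets that were not tested had highest group means between 10.6 and 54.8. For 9 genes no probe set was tested, namely Efna1, Efna5, Epha2, Robo3, Sema3a, Sema3b, Sema3c, Sema5a and Sema6a. Differences are given as log2 differences of intensity + 16 with the standard error (SE) from limma, so they understate the ratio of low intensities. A probe set was called at a Benjamini-Hochberg adjusted p below 0.05 over 8460 probe sets and a difference of at least 1.5-fold.

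Tissue accounted for most calls. Of the 42 tested probe sets, 33 (78.6%) were called in at least 1 of 6 comparisons of tissues, against 45.1% of all 8460 tested. Among the 4 brain regions labelled in 1 round, 16 (38.1%) were called, against 13% of all tested. The range between the highest and lowest of these 4 region means had a median of 0.58 on the log2 scale over the 42 probe sets and 0.31 over all tested. The range over the 6 strain means in the same regions had a median of 0.26 for the guidance probe sets and 0.28 for all tested. The region range exceeded the strain range for 32 of the 42 (76.2%), and for 4601 of all 8460 tested (54.4%).

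**Figure D1:**
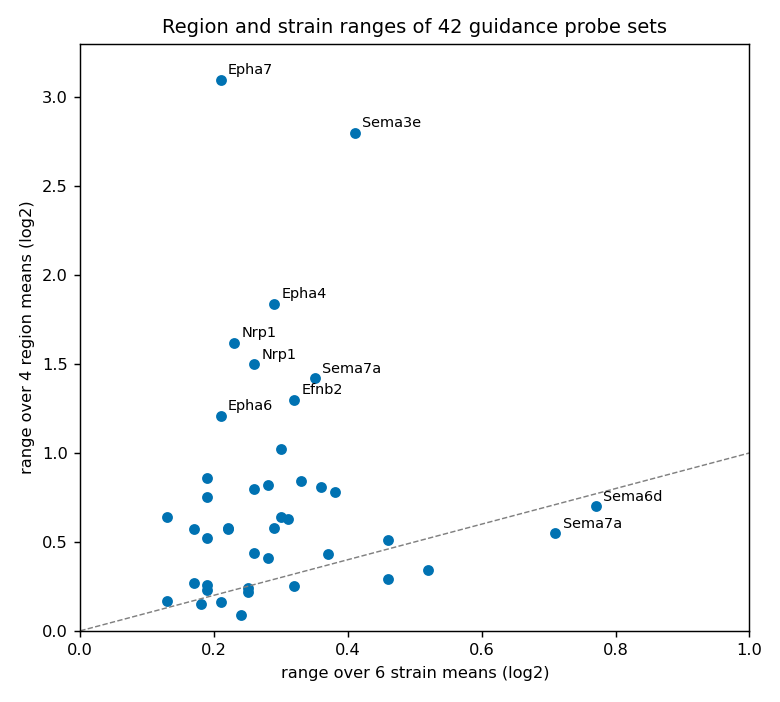
Each point is 1 of the 42 tested guidance probe sets, with its log2 range over 6 strain means on the x axis and over 4 region means on the y axis (bed nucleus, hippocampus, hypothalamus and periaqueductal gray); the dashed line marks equal ranges. Epha7 (3.10) and Sema3e (2.80) lie highest, while Sema6d has a strain range of 0.77 and a region range of 0.70.

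**Figure D2:**
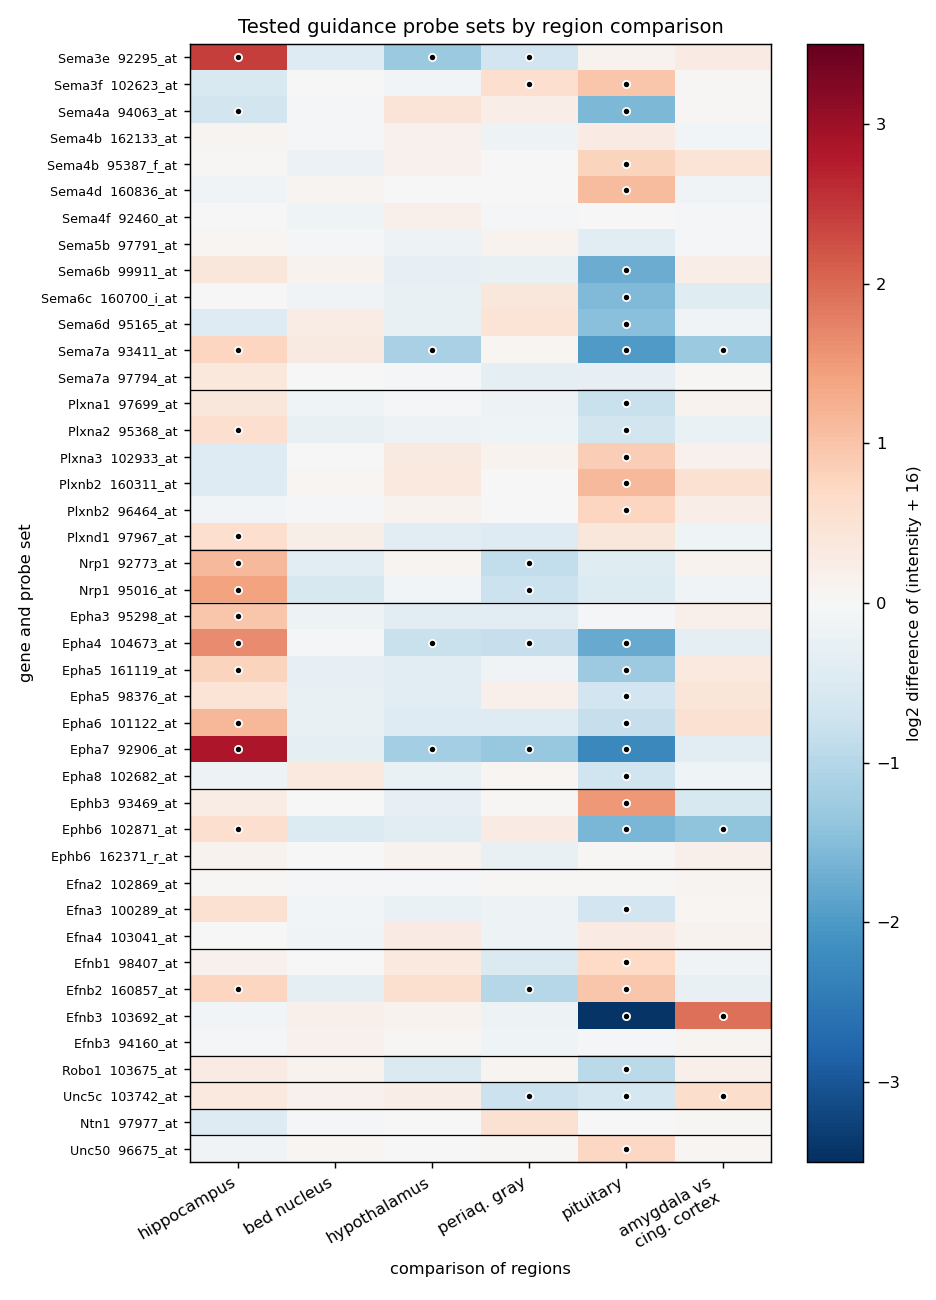
Colour gives the log2 difference of intensity + 16 for each tested guidance probe set (rows, grouped by family) in 6 comparisons of tissues (columns), and black dots mark called differences. Red fills most of the EphA and Nrp1 rows in the hippocampus column, where 13 probe sets were called higher, and the pituitary column holds 10 called higher and 18 called lower.

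Of the 4 brain regions labelled in 1 round, the hippocampus had the most guidance probe sets called higher. It was compared with the mean of the bed nucleus, hypothalamus and periaqueductal gray. Of the 42 probe sets 13 were called higher, where 5.5% of all tested were, and 1 was called lower, where 5.02% were. EphA receptors led the set with 5 of 7 tested probe sets called, joined by both probe sets of the co-receptor Nrp1, the semaphorins Sema3e and Sema7a, the plexins Plxna2 and Plxnd1, the ephrin Efnb2 and the receptor Ephb6. The median difference of the 42 was 0.20, and that of all tested was -0.01. Every called difference had the same sign in 6 of 6 strains. The same strains made up the mean that was called, so this is not a separate check.

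The DNA just upstream of the genes that led this set is shown as context for their differences in RNA. RefSeq's table for GRCm38.p6 holds promoters for 38 of the 44 genes. The 3 genes with the largest differences are printed 5′ to 3′ on the gene's strand, up to the outermost annotated start of the gene. Capitals mark the GC box, GGGCGG on either strand. Epha7 is from chr4:28812881-28813065 (+ strand, 185 bases), Sema3e from chr5:14025026-14025275 (+ strand, 250 bases) and Epha4 from chr1:77515108-77515338 (- strand, 231 bases).
Epha7: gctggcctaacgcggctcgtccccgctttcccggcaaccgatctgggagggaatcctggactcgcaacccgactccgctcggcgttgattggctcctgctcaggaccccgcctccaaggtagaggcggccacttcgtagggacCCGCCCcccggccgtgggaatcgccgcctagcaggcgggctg
Sema3e: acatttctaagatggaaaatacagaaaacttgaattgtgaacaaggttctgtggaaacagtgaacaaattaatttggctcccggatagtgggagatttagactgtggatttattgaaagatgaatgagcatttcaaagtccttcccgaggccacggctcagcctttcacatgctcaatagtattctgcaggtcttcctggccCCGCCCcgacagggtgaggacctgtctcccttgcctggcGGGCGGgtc
Epha4: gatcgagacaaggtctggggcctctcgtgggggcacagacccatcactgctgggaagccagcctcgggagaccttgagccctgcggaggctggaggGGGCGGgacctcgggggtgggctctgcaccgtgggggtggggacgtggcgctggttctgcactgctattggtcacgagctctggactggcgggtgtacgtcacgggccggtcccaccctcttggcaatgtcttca
The GC box was found 1 time in Epha7, 2 times in Sema3e and 1 time in Epha4. The E-box CAGATG, the cAMP response element TGACGTCA and the TATA box TATAAA, searched on both strands, were found in none of the 3. Windows of the same lengths over 32851 promoters held a GC box in 21.8%, 32.7% and 30% of cases for Epha7, Sema3e and Epha4. These windows took the first bases of the 250 before each listed start. Those of 185 and 231 bases therefore ended short of that start, while the printed sequences run up to the gene's outermost start. Lengths were thus matched and positions were not. The GC content was 69.7% for Epha7, 48% for Sema3e and 67.1% for Epha4. The median over all promoters was 52.4%, taken over 250 bases, which is longer than the Epha7 and Epha4 sequences. Of the 38 guidance promoters 29 held a GC box in the 250 bases before the start (76.3%, against 32.7% of all promoters). The guidance share took 1 promoter per gene, while the other counted every listed start, also where a gene had several. The 2 shares therefore rest on unlike sets. A match to such letters is a description, not a site.

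Among the receptors, Epha7, which binds ephrin-A ligands, differed most. Its intensity on the 12 hippocampal arrays had a lowest value of 304, a median of 366 and a highest of 419. On the 13 bed nucleus arrays these were 51.6, 57 and 80.9, on the 12 hypothalamic arrays 15.2, 29.2 and 54.2, and on the 12 arrays of the periaqueductal gray 15.7, 26.1 and 39.3. Hippocampal and other arrays did not overlap. The difference was 2.82 ± 0.08 (SE), or 7.07-fold (limma, adjusted p = 4.04e-34).

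Epha4, a receptor of both ephrin-A and ephrin-B ligands, was also highest in the hippocampus. Hippocampal arrays ran from 451 through a median of 536 to 750, and the bed nucleus came next with 133, 225 and 300. The hypothalamus (91.3, 145 and 201) and the periaqueductal gray (112, 146 and 174) overlapped widely. Again no hippocampal array overlapped the other regions, and the difference was 1.65 ± 0.07, or 3.13-fold (limma, adjusted p = 5.86e-26).

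Other EphA receptors were called at smaller differences. Epha6 ran from 63.1 to 107 in the hippocampus and from 15.3 to 43.8 in the other 3 regions, a difference of 1.16 ± 0.09 without overlap. Epha3 ran from 34.8 to 68.5 against 7.76 to 35.4 (0.96 ± 0.09), so the lowest hippocampal array touched the range of the others. Epha3 passed the limit for testing only through the hippocampus (highest group mean 60.4), since arrays of other tissues reached at most 42. Its call is therefore not independent of that limit. For Epha5 one probe set ran from 171 to 233 against 86.9 to 150 (161119_at, 0.78 ± 0.06), and the other gave 0.48, under the 1.5-fold minimum. Epha8 was not called. The adjusted p of the called ones lay between 2.05e-16 and 1.01e-12 in limma.

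Nrp1 carries class 3 semaphorin and vascular endothelial growth factor signals, and both of its probe sets rose. For probe set 95016_at hippocampal arrays read 463, 507 and 591 at the lowest, median and highest, and the other 3 regions lay between 121 and 271. The regions did not overlap, with a difference of 1.41 ± 0.08 (limma, adjusted p = 3.54e-22). For probe set 92773_at they read 87, 139 and 181 against a span of 24.6 to 98.5, which overlapped, with a difference of 1.14 ± 0.10. The plexins Plxna2 (0.59 ± 0.06) and Plxnd1 (0.59 ± 0.12), both at 1.51-fold, were just past the fold minimum.

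Among the ligands, the secreted semaphorin Sema3e, which binds Plxnd1 directly, differed most. Hippocampal arrays read 113, 150 and 219 at the lowest, median and highest. Bed nucleus arrays read 6.52, 23.1 and 37.5, hypothalamic arrays -1.98, 7.17 and 20.6, and those of the periaqueductal gray -2.43, 18.5 and 33. The hippocampal arrays stood clear of all others, and the hypothalamus was close to background. The difference was 2.43 ± 0.12 (limma, adjusted p = 3.9e-24), with 5.38-fold depending on the 16 added. The membrane-anchored Sema7a (93411_at, 0.75 ± 0.08) and the ephrin-B ligand Efnb2 (0.74 ± 0.06) were also called higher, and for both the hippocampal range overlapped the others. The second Sema7a probe set gave 0.38 and was not called.

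The transmembrane semaphorin Sema4a was the member called lower, with hippocampal arrays of 161, 235 and 294 against a span of 272 to 490 elsewhere (-0.64 ± 0.07). Ephb6, an Eph receptor without kinase activity, was called higher by 1 of its 2 probe sets (102871_at, 0.59 ± 0.09). The other gave 0.13.

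The summed intensity of the 3 tested hippocampal markers moved with this set, from 457 to 628 on hippocampal arrays against 28 to 129 in the other 3 regions, and the 3 tested cortex markers ran from 1437 to 1891 against 146 to 341. Both of these lists name Neurod6, so they are not separate. Also called higher were 2 of 5 astrocyte and 1 of 5 meninges markers. Called lower were 2 of 2 subpallium, 3 of 4 hypothalamic, 2 of 3 midbrain, 2 of 3 thalamus, 1 of 3 choroid plexus and 1 of 5 pituitary markers. Their part in the result was not tested. On the scan day that held 8 hippocampal and 4 hypothalamic arrays, 13 of 13 members that differed by over 1.5-fold between these regions kept their sign. These arrays also entered the difference that picked the members, so a shared sign was likely beforehand and cannot separate region from scan day. With 64 added in place of 16 the calls fell from 14 to 7, and with probe sets limited to those above 4 times the median value to 8 (fewer were tested). With 64 added Ephb6, Efnb2, Sema7a, Sema4a, Epha3, Plxna2 and Plxnd1 lost their call. With scan day in the fit, as a random block or as a term, 12 were called, 11 of them among the 14, and Ephb6, Plxna2 and Plxnd1 lost theirs. Without replicate 1 Ephb6 and Plxna2 lost theirs, without replicate 2 Sema4a and Plxnd1, and without replicate 3 Plxna2.

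**Figure D3:**
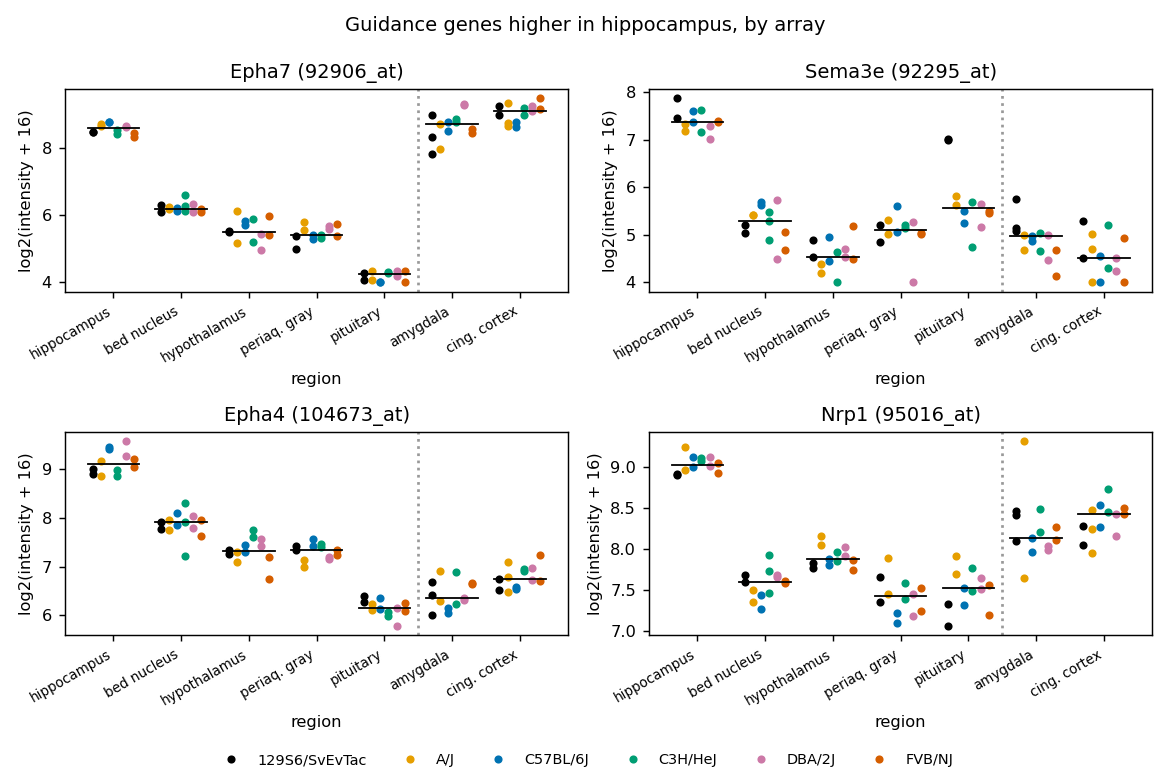
Each point is 1 array, coloured by strain, with log2(intensity + 16) on the y axis and the tissue on the x axis; bars are medians over the 12 or 13 arrays, and the dotted line separates tissues labelled in 1 round (left) from those labelled in 2 rounds (right). For Epha7, Sema3e, Epha4 and Nrp1 (95016_at) each hippocampal array lies above each array of the bed nucleus, hypothalamus and periaqueductal gray.

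In the hypothalamus 4 guidance probe sets were called lower than the mean of the other 3 regions (2.06% of all tested were) and 0 higher (2.14% of all tested were). These 4 were Sema3e (-1.31 ± 0.12), Epha7 (-1.19 ± 0.08), Sema7a (93411_at, -1.14 ± 0.08) and Epha4 (-0.77 ± 0.07). Since each of them was also called higher in the hippocampus, which is part of the mean they were set against, the comparisons share samples. Sema7a 93411_at was the one whose hypothalamic arrays (45.7, 61.1 and 81.7 at the lowest, median and highest) overlapped none of the other regions (89.1 to 238). Its adjusted p was 2.17e-17 in limma. The second Sema7a probe set, 97794_at, gave -0.05 and was not called, with hypothalamic arrays of 5.06 to 51 that overlapped the other regions (8.3 to 67.8). Epha4 lost its call without replicate 1. The median difference of the 42 was -0.08, and that of all tested was 0.04. Of the tested markers, 2 of 3 hippocampal, 2 of 3 cortex, 2 of 3 choroid plexus and 4 of 5 myelin markers were also called lower here. Their summed intensities on hypothalamic arrays and on those of the other 3 regions ran from 41 to 80.5 and 28 to 628 for hippocampus, from 195 to 295 and 146 to 1891 for cortex, from 58.2 to 144 and 46.3 to 5091 for choroid plexus, and from 3586 to 6787 and 3739 to 9408 for myelin. Thalamus and midbrain markers were each lower in 2 of 3 cases, and 1 thalamus marker was higher. Also higher were 3 of 5 pituitary (median 1.25), 2 of 5 meninges, 1 of 5 astrocyte and 1 of 2 subpallium markers. Their part in the result was not tested.

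In the periaqueductal gray 7 probe sets were called lower (2.61% of all tested were) and 1 higher (1.89% were), with a median of -0.13 over the 42 and -0.03 over all tested. The ligand called higher was Sema3f (0.60 ± 0.12, adjusted p = 4.33e-05 in limma), whose low arrays of 17.8, 27.5 and 47.5 overlapped the other regions (-17 to 31.9). Lower were the ephrin-B ligand Efnb2 (-0.99 ± 0.06), the receptors Epha7 (-1.32 ± 0.08), Epha4 (-0.81 ± 0.07) and Unc5c (-0.74 ± 0.06), both Nrp1 probe sets (-0.85 ± 0.10 and -0.75 ± 0.08) and Sema3e (-0.67 ± 0.12). All but Unc5c were also called higher in the hippocampus, which is part of the mean used here, so the comparisons share samples. Medians in the periaqueductal gray and the hypothalamus were 146 and 145 for Epha4, 26.1 and 29.2 for Epha7 and 18.5 and 7.17 for Sema3e. For Nrp1 they were 40.4 and 74.9 (92773_at) and 155 and 219 (95016_at). Efnb2 read 47.4, 66.2 and 83.6 in the periaqueductal gray at the lowest, median and highest, and 53.6, 105 and 119 in the bed nucleus. Its hypothalamic arrays read 126, 167 and 199 and its hippocampal arrays 155, 180 and 208. The periaqueductal gray thus overlapped the bed nucleus and neither of the other regions. With 64 added in place of 16 the calls fell from 8 to 4, where Sema3f, Unc5c, Sema3e and 1 Nrp1 probe set (92773_at) lost theirs. Sema3f and Sema3e also lost theirs without replicate 1, and Sema3f with scan day or shared animals in the fit. Called lower here as well were 2 of 3 hippocampal, 2 of 3 cortex and 2 of 3 choroid plexus markers, with sums of 28 to 61.6, 172 to 267 and 46.3 to 86 against 41 to 628, 146 to 1891 and 58.2 to 5091 in the other 3 regions, and their part was not tested. Meninges markers were lower in 2 of 5 cases and hypothalamic markers in 3 of 4.

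The netrin receptor Unc5c and its ligand Ntn1 were measured side by side in the periaqueductal gray. Unc5c read 74.1, 117 and 144 there, and 142, 215 and 261 in the hippocampus, with the bed nucleus (152, 186 and 214) and hypothalamus (126, 195 and 284) at similar values. Ntn1 read 125, 152 and 224 in the periaqueductal gray and 73.8, 87.5 and 113 in the hippocampus, without overlap. The periaqueductal gray overlapped the bed nucleus (85.9, 104 and 158) and the hypothalamus (91.7, 112 and 134). Against the mean of these 3 regions Ntn1 differed by 0.54 ± 0.08 (1.45-fold, limma, adjusted p = 5.44e-08), under the fold minimum, and it was not called in any comparison of tissues.

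In the bed nucleus 0 of the 42 were called, where 1.39% of all tested were called higher and 0.946% lower (limma). At an unadjusted p below 0.05 there were 19, and 15 had an adjusted p below 0.05 at a difference under 1.5-fold, while 14.9% of all tested had an adjusted p below 0.05.

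The amygdala was set against the cingulate cortex, the other tissue amplified in 2 rounds. Called higher in the amygdala were 2 probe sets (2.45% of all tested were) and called lower 2 (2.8% were). The ephrin-B ligand Efnb3 gave the largest difference by probe set 103692_at. Amygdala arrays read 928, 1126 and 1542 at the lowest, median and highest, and cingulate cortex arrays 207, 303 and 408. The ranges did not overlap, and the difference was 1.93 ± 0.07, or 3.82-fold (limma, adjusted p = 1.13e-27). Unc5c was higher too (259, 341 and 406 against 175, 201 and 255, a difference of 0.61 ± 0.07, without overlap), and lost its call with 64 added, with quantile normalization or without replicate 1.

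Ephb6 (102871_at) was lower in the amygdala, at -1.89, 34.5 and 40.8 against 59.7, 95.6 and 182, without overlap (-1.42 ± 0.11, limma, adjusted p = 1.04e-15). Sema7a (93411_at) was lower at 52.3, 75.2 and 129 against 127, 238 and 375 (-1.30 ± 0.09), where the highest amygdala array lay within the cortical range. On each of 2 scan days that held both tissues, 4 of 4 members kept their sign. The arrays of these days had also entered the difference that picked the members, so a shared sign was likely beforehand. Markers also differed, with all 3 tested choroid plexus and both subpallium markers higher and 2 of 3 cortex markers lower. Their summed intensities in the amygdala and the cingulate cortex ran from 126 to 4930 and 65.9 to 2501 for choroid plexus, from 3227 to 7453 and 777 to 1418 for subpallium, and from 702 to 1841 and 2109 to 3160 for cortex. Their part in the result was not tested.

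Second probe sets of the same genes did not follow. Efnb3 94160_at read 177, 216 and 287 in the amygdala and 144, 212 and 281 in the cingulate cortex, a difference of 0.09. The second probe set of Ephb6 gave 0.17 and that of Sema7a 0.03. Of the 7 genes with several tested probe sets, Nrp1 in the hippocampus and in the periaqueductal gray, and Epha5 and Plxnb2 in the pituitary gland, had both probe sets called in 1 direction.

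**Figure D4:**
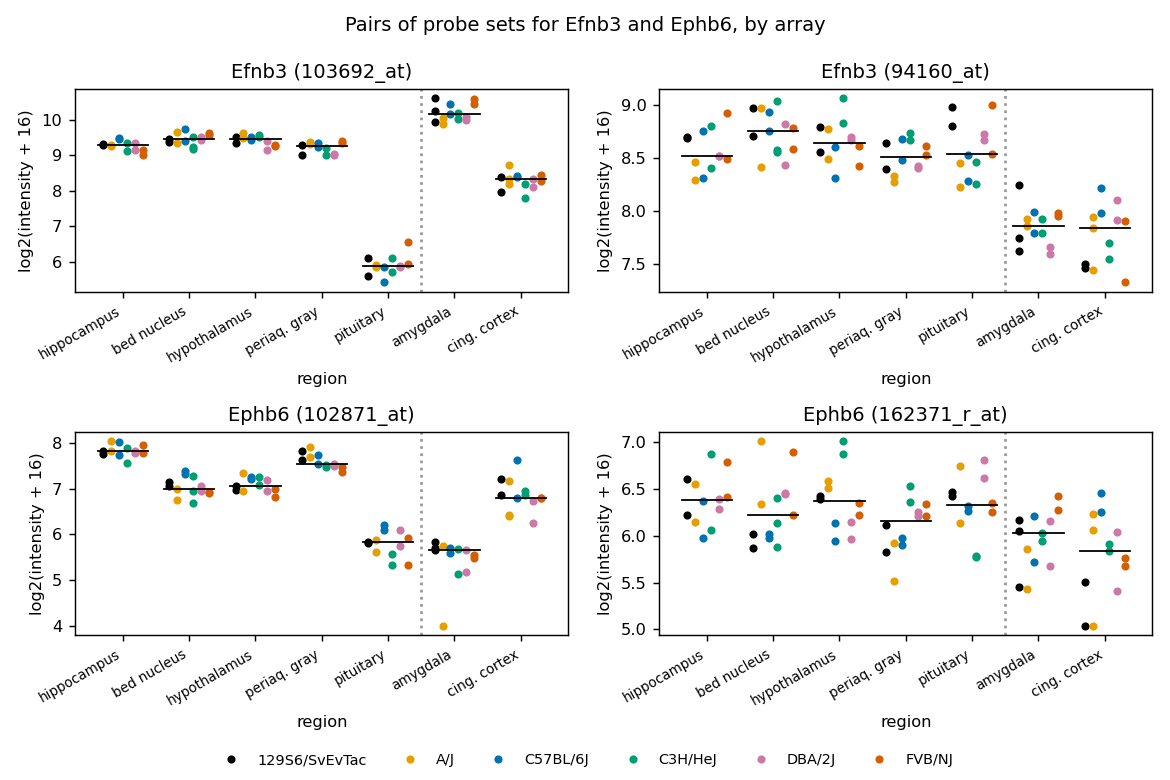
Each point is 1 array, coloured by strain, with log2(intensity + 16) on the y axis and the tissue on the x axis, for the 2 probe sets each of Efnb3 and Ephb6; bars are medians over the 12 or 13 arrays, and the dotted line separates the labelling protocols. Pituitary arrays of Efnb3 103692_at fall to intensities of 27 to 78.1, while those of 94160_at (284 to 497) overlap the brain regions.

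The pituitary gland, an endocrine tissue, was compared with the mean of the 4 brain regions labelled in 1 round. Guidance probe sets were called lower in 18 cases and higher in 10, where 19.5% and 20.1% of all tested were. The median difference was -0.35 for the 42 and 0.04 for all tested. EphA receptors were called lower in 6 of 7 tested probe sets, and none was called higher. Semaphorins divided into 5 lower and 3 higher, and plexins into 2 lower and 3 higher.

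On the log2 scale with 16 added, the difference of Efnb3 103692_at was the largest. Its pituitary arrays read 27, 43 and 78.1 at the lowest, median and highest, and the brain arrays lay between 495 and 833, without overlap. The difference was -3.44 ± 0.06, 10.9-fold lower (limma, adjusted p = 2.55e-45). The second probe set of Efnb3 gave -0.04.

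Among receptors, Epha7 read -9.07, 2.94 and 4.42 in the pituitary gland, at background, below the brain span of 15.2 to 419 (-2.26 ± 0.08). Epha4 read 39.2, 54.6 and 68.4 and stood below every brain array (91.3 to 750), at -1.76 ± 0.07. Ephb6 (102871_at) read 24.3, 40.6 and 57.6 against 87.7 to 247, without overlap, at -1.61 ± 0.09, while its other probe set gave 0.04. Lower by smaller differences were both probe sets of Epha5 (-1.27 and -0.68), the Slit receptor Robo1 (-0.94), Epha6 (-0.82), Plxna1 (-0.79), Epha8 (-0.71), Plxna2 (-0.63) and Unc5c (-0.62).

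Among ligands, Sema7a (93411_at) read 7.39, 21.9 and 36.6 in the pituitary gland against 45.7 to 238 in brain, without overlap, at -1.98 ± 0.08, while 97794_at gave -0.29 and was not called. The transmembrane semaphorins Sema6b (-1.74 ± 0.09), Sema4a (-1.58 ± 0.07), Sema6c (-1.54 ± 0.15) and Sema6d (-1.46 ± 0.07) were lower as well. For Sema6c and Sema6d the pituitary and brain arrays overlapped. The ephrin-A ligand Efna3 was lower by a smaller difference (-0.66).

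Higher in the pituitary gland was the receptor Ephb3, with 87.3, 131 and 244 against a brain span of 6.09 to 64 (1.51 ± 0.10, 2.85-fold, adjusted p = 7.95e-19 in limma). Plxnb2, a receptor of class 4 semaphorins, was higher by both probe sets (1.14 ± 0.07 and 0.75 ± 0.06). The class 4 ligand Sema4d read 196, 253 and 285 against 68 to 135 in brain, at 1.10 ± 0.06, and Sema4b was higher by 1 of 2 tested probe sets (95387_f_at, 0.77 ± 0.07). Neither Ephb3 nor Sema4d overlapped the brain arrays. Efnb2 (0.98 ± 0.05), Sema3f (0.97 ± 0.11), Plxna3 (0.86 ± 0.06) and Efnb1 (0.69 ± 0.13) followed. Sema3f passed the limit for testing only through the pituitary gland (highest group mean 57.3), since arrays of other tissues reached at most 47.5. Its call here is therefore not independent of that limit. The remaining probe set of the 10 was that of Unc50, no guidance gene, which was higher by 0.73 ± 0.04, at 784, 834 and 885 against 394 to 614.

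The 5 tested myelin markers summed to 86.4 to 1636 on pituitary arrays and 3586 to 9408 on the brain arrays, with the median of Mobp at or below 0 in the pituitary gland, and the 5 tested astrocyte markers to 1137 to 1523 and 5015 to 8907. Of the 5 endothelial markers 2 were called higher and 1 lower. Their part in the result was not tested. On the scan day that held 2 pituitary and 10 bed nucleus or periaqueductal gray arrays, 24 of 24 members that differed by over 1.5-fold kept their sign. Since these arrays had also entered the difference that picked the members, a shared sign was likely beforehand. With 64 added in place of 16, or with the limit at 4 times the median value, 18 were called in place of 28. The 10 that lost their call with 64 added were Efna3, Epha6, Sema3f, Epha8, Robo1, Unc5c, Plxna2, Plxna1, Epha5 (98376_at) and Efnb1.

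No comparison of tissues called 9 of the 42. These were Efna2, Efna4, Ntn1, Sema4f, Sema5b and the second probe sets of Efnb3 (94160_at), Ephb6 (162371_r_at), Sema4b (162133_at) and Sema7a (97794_at). Sema4f, a transmembrane semaphorin, read 394, 467 and 576 in the hippocampus and 376, 449 and 540 in the pituitary gland.

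Among co-receptors and partners of these families, 12 of 29 listed genes were tested. In the pituitary gland 8 were called lower and 0 higher (median -1.09, all tested 0.04), among them Mag, a myelin protein that inhibits axon growth (-3.87), and the adhesion molecules Chl1 (-2.72), L1cam (-2.01) and Nrcam (-1.37). In the hippocampus 1 was called higher, Nrcam (0.72), and 3 lower, namely the Hedgehog receptor Ptch1 (-1.39), Ret, a receptor of glial cell line-derived factors (-1.01), and L1cam (-0.63). The hypothalamus had 1 higher (Ptch1, 0.80) and 1 lower (Mag, -0.85), the periaqueductal gray 2 higher (Mag, 0.87, and Ret, 0.70) and 0 lower, and the other comparisons of tissues 0. Of all tested probe sets 19.5% were called lower in the pituitary gland, 5.5% higher and 5.02% lower in the hippocampus, 2.14% higher and 2.06% lower in the hypothalamus and 1.89% higher in the periaqueductal gray. Mag is itself 1 of the 5 tested myelin markers, of which 4 were called lower in the hypothalamus (median -0.64) and 1 higher in the periaqueductal gray (median 0.53). Their sums ran from 3586 to 6787 in the hypothalamus, 6405 to 9408 in the periaqueductal gray, 3739 to 7462 in the hippocampus and 6000 to 8960 in the bed nucleus, and from 86.4 to 1636 in the pituitary gland. Their part in these differences was not tested.

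Among intracellular effectors, 25 of 43 listed genes were tested. In the pituitary gland 11 were called lower and 2 higher (median -0.46, all tested 0.04), led by the growth cone protein Gap43 (-4.09), by Ngef, an exchange factor that binds Eph receptors (-2.10), and by Rock1 (0.77) and Rras (0.64) on the higher side, where 19.5% of all tested were called lower and 20.1% higher. In the hippocampus Gap43 (-1.16) and the cofilin kinase Limk1 (-0.85) were lower (5.02% of all tested were) and Crmp1, a mediator of semaphorin signals, was higher (0.60, 5.5% were). Tiam1, an exchange factor for Rac, was higher in the bed nucleus (1.14), lower in the periaqueductal gray (-1.09) and hypothalamus (-0.61), and higher in the amygdala than in the cingulate cortex (0.99). Limk1 was higher in the periaqueductal gray (0.92), and in the amygdala Gap43 (1.01) and Pak3 (0.60) were higher and Ngef lower (-0.60). In the 4 comparisons other than those of the hippocampus and pituitary gland, between 0.946% and 2.8% of all tested were called in a given direction.

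Strain differences of the guidance genes in brain were small. A strain was set against the average of the remaining 5 over the 6 brain regions, and 0 of 252 pairs of probe set and strain were called, where 1.12% of all pairs were (limma). At an unadjusted p below 0.05 there were 45 pairs, and 12 had an adjusted p below 0.05 with no fold minimum (13.5% of all pairs did). The largest absolute difference was 0.47. An F test across strains was passed by 10 of the 42 at an adjusted p below 0.05 (39.3% of all tested passed), 6 of them semaphorins. Without replicate 1, or without replicate 2, which leaves most groups with a lone array, 0 passed, and 3 passed with shared animals as a random block.

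Sema6d, a transmembrane semaphorin that binds Plxna1, had the largest F (7.57, adjusted p = 0.000183). Over the brain arrays its intensity had a lowest value of 28.1, a median of 90.3 and a highest of 157 in FVB/NJ, and 21.1, 161 and 264 in C57BL/6J. The other 4 strains had medians between 112 and 153. The arrays of different strains overlapped, since each strain spans 6 regions. FVB/NJ was lower than the other strains by a log2 difference of -0.35 ± 0.07 (adjusted p = 7.2e-05 in limma, the same sign in 5 of 6 regions), and C57BL/6J was higher by 0.23 ± 0.07 (5 of 6). In the hippocampus the FVB/NJ arrays of Sema6d read 80 and 82.7, below all arrays of the other strains (108 to 165). In the pituitary gland, where labels and profiles disagree, the 2 arrays labelled C3H/HeJ read 25.4 and 31.4 and those labelled FVB/NJ 46.7 and 90.3.

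Both probe sets of Sema7a passed the F test, in opposite directions for 129S6/SvEvTac. Probe set 93411_at (F = 6.85, adjusted p = 0.000429) was lower in 129S6/SvEvTac by -0.33 ± 0.07 in limma, with brain arrays of 52.3, 106 and 186 and the same sign in 6 of 6 regions. Probe set 97794_at (F = 3.98, adjusted p = 0.0148) was higher there by 0.47 ± 0.12, with arrays of 9.18, 38.5 and 67.8 and the same sign in 6 of 6 regions. Its values were low, and it passed the limit for testing (55.4) only through 129S6/SvEvTac, with a highest group mean of 64.7 in the hippocampus. Brain arrays of the other strains reached at most 49.5. Its F test is therefore not independent of that limit and is given as a description. C57BL/6J was higher by 0.22 ± 0.07 on 93411_at (4 of 6 regions). A difference in the sequence under the probes between strains was not tested.

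**Figure D5:**
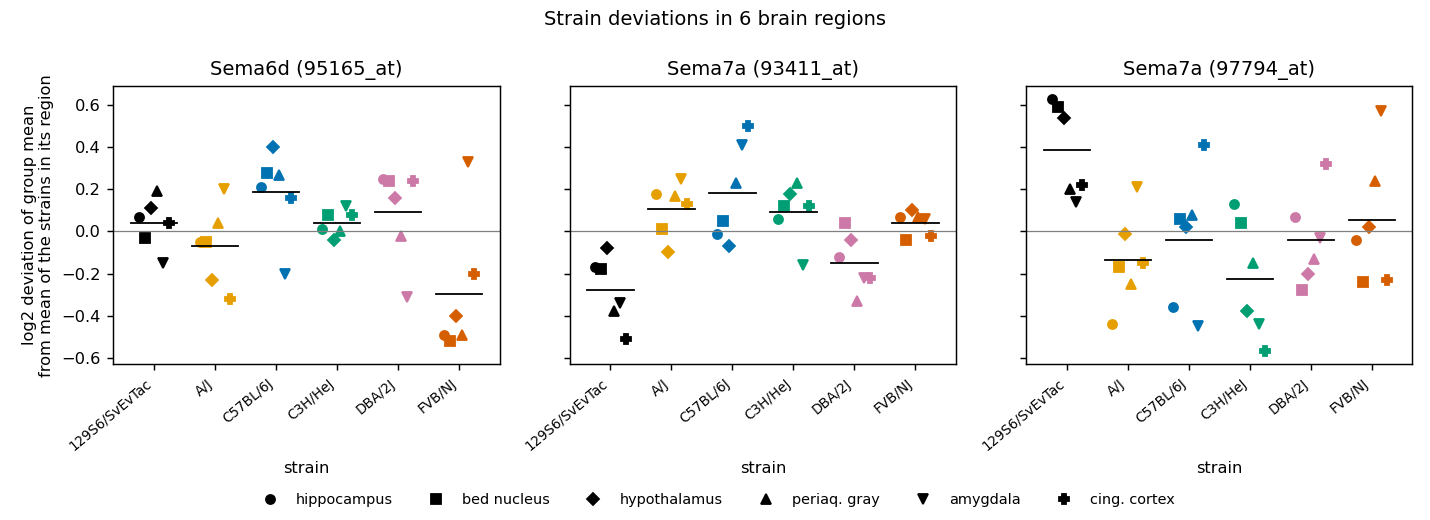
Each point is the mean of 1 group of strain and brain region, as its log2 deviation from the mean of the 6 strains in that region (y axis), by strain (x axis); bars are means over the 6 regions. FVB/NJ lies below 0 for Sema6d in all regions but the amygdala, and 129S6/SvEvTac lies below 0 for Sema7a 93411_at and above 0 for 97794_at in 6 of 6 regions.

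The other named members of the F test were Sema4f (F = 4.63), Plxna2 (4.14), Sema6c (3.97), Unc5c (3.57) and Ephb3 (3.27). Sema4f was lower in C57BL/6J (-0.21 ± 0.05, 6 of 6 regions), with arrays of 354, 413 and 769 against medians of 470 to 568 in the other strains. Ephb3 was lower in C57BL/6J (-0.33 ± 0.10, 6 of 6 regions) and Plxna2 higher (0.16 ± 0.06, 6 of 6 regions). The brain values of Ephb3 were low, with C57BL/6J arrays of -0.55, 29.3 and 43 against medians of 31.9 to 42.9 in the other strains. Its highest group mean (202) lay in the pituitary gland, outside this test. Unc5c was lower in DBA/2J (-0.20 ± 0.06, 4 of 6 regions). The remaining pairs with an adjusted p below 0.05 in limma were Robo1 (0.22) and Sema5b (-0.21) in 129S6/SvEvTac and Epha8 (-0.19) in C57BL/6J. The genes with the largest differences between regions did not pass, with an adjusted p of 0.504 for Epha7, 0.584 for Epha4 and 0.23 for Sema3e.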

How the data were processed

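Guidance genes were measured on 87 arrays in 42 groups of strain and tissue. The deposited matrix gives each value as an intensity, which is linear and has background subtracted (6.33% below 0, lowest -478.29). Which software and scaling the authors used is not given in the sources used here. Array medians ranged from 42.6 to 66.1. The number of arrays limits the precision.

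Negative values were raised to 0 before taking log2(intensity + 16). Testing required a highest group mean above the median value, which left 8460 of 12422. Symbols came from the array's annotation, which gives 10833 probe sets a single symbol, 396 several symbols and 1193 none. Fits used limma 3.58.1 under R 4.3.3 (package versions: statmod 1.5.0, and 1.17.8 for data.table), with a mean per group and moderated variances. Tables and figures used Python 3.11.15, pandas 2.3.3, numpy 2.4.6 and matplotlib 3.10.9. A strain was set against the other 5 with the 6 brain regions weighted equally. F tests used an adjusted p below 0.05.

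In each comparison of tissues up to 8 called members on each side were named with errors, by the size of the difference, for strains up to 12 pairs and 8 members by F, and for the interaction 6, and other members are given with their difference or by range. From the pathway lists up to 4 called genes were to be named per comparison. The members and lists were chosen with earlier results of these data known.

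Tested on simulated data for the hippocampus over 8460 probe sets, 98 of 100 changes of 1.5-fold and 100 of 100 of 2-fold were recovered at adjusted p below 0.05. For the strain A/J these were 98 and 100 of 100. False calls numbered 10 and 6. The 1.5-fold minimum of the calls was not applied in these counts. The changes of 1.5-fold had mean estimates of 0.585 and 0.575, so many would lie on either side of that minimum. The simulated noise was independent between arrays, without scan day or shared animals. Alternatives were the added constant, scaling, filter, replicates, blocks for replicate, scan day and animal, and the fold minimum. Deviations from the group means were correlated between the replicate 1 arrays of each pair of groups. Of 861 pairs, 133 correlated over 0.1 (range -0.384 to 0.486). Most pairs joined different strains, which share no animals, so this cannot show whether the numbers pair arrays of the same animals.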

Additional observations from a re-analysis of the deposited data

Results flagged for a closer look

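For 6 of the 42 tested guidance probe sets the strain effect differed between brain regions by an interaction F test (limma, adjusted p below 0.05), where 21.3% of all tested did. These were Epha8 (F = 3.61, adjusted p = 0.00177), Efnb2 (F = 3.13, adjusted p = 0.00538), Epha5 161119_at (F = 2.77, adjusted p = 0.0123), Robo1 (F = 2.64, adjusted p = 0.0167), Sema6d (F = 2.33, adjusted p = 0.0327) and Plxnb2 96464_at (F = 2.17, adjusted p = 0.0476). The other tested probe sets of Epha5 (98376_at) and Plxnb2 (160311_at) did not pass this F test in limma (adjusted p = 0.386 and 0.189).

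Epha8 in the cingulate cortex read 60 and 68.7 in C3H/HeJ and 16.4 and 25.3 in FVB/NJ. Efnb2 in the amygdala read 490 and 413 in C57BL/6J and 249 and 232 in FVB/NJ. Epha5 161119_at in the cingulate cortex read 420 and 505 in 129S6/SvEvTac and 255 and 234 in C57BL/6J. Robo1 in the amygdala read 17 and 17.1 in A/J and 39.7 and 49.9 in C57BL/6J, while in the hippocampus it read 83.1 and 84.7 in A/J and 36.7 and 54.5 in C57BL/6J. Sema6d read 47 and 40 in FVB/NJ amygdala, where the other strains ran from 17 to 41.3, and 80 and 82.7 in FVB/NJ hippocampus, where they ran from 108 to 165. Plxnb2 96464_at in the cingulate cortex read 136 and 189 in C57BL/6J and 98.8 and 86.3 in 129S6/SvEvTac.

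The largest deviation of a group lay in the amygdala or the cingulate cortex for Epha8, Efnb2, Epha5, Robo1 and Plxnb2, and in the bed nucleus for Sema6d. The median SD within a group over the tested guidance probe sets was 0.19 on the log2 scale for arrays labelled in 2 rounds and 0.13 for those labelled in 1 round. Its part in the result was not tested. None of these 6 passed without replicate 1 or without replicate 2.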

How the results depend on the processing

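The replicate block changed no count of calls between tissues (14, 4, 8, 28, 4 and 0 probe sets) or strains (10), and gave 8 in place of 6 for the interaction. Calls in the bed nucleus went from 0 to 1 with quantile normalization, 1 with a scan day term and additive strain and region (chosen after seeing the data), and 15 with no fold minimum. Hippocampus calls went from 14 to 7 with 64 added, 8 with the filter at 4 times the median, 28 with no fold minimum and 6 at 2-fold. Hypothalamus calls went from 4 to 25 with no fold minimum. Periaqueductal gray calls went from 8 to 4, 5, 23 and 1 under these same 4 settings. Pituitary calls went from 28 to 18, 18 and 13 with 64 added, the stricter filter and 2-fold. Amygdala calls went from 4 to 7 with 4 added and 15 with no fold minimum. Strain pairs went from 0 to 1 with 4 added and 12 with no fold minimum. The strain F test went from 10 to 4 with the stricter filter, 5 with scan day and 3 with shared animals as a random block, 3 with the 42 group means as samples and 4 with the scan day term. Without replicate 1, 2 or 3 the counts ranged from 0 to 11 for the strain F test, 0 to 9 for the interaction, 13 for the hippocampus, 3 to 4 for the hypothalamus, 7 to 9 for the periaqueductal gray, 27 to 28 for the pituitary gland, 4 to 5 for the amygdala, and 0 for the bed nucleus and for strain pairs. The lone arrays left are assumed to vary like the other groups. Without the 4 pituitary arrays, 27 were called there. Of the values of single named probe sets under all alternatives, 772 kept their side of the threshold, 79 no longer passed it and none turned. Scan day as a block with a mean per group left no comparison estimable and was not run. The interaction gave no value under the additive fits. Signals near background, such as Epha7 in the pituitary gland, limit what a difference can show. The cause of these changes was not tested, except that the stricter filter tested fewer probe sets.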

Other observations

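Sema3e was not called in the pituitary gland over all strains (0.13 ± 0.12), but its 2 pituitary arrays of 129S6/SvEvTac read 112 and 113. All other pituitary arrays of Sema3e read between 10.8 and 40.7, those with exchanged strain profiles included. This difference was noticed in the data and was not tested.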
